A study of Mus musculus with 14 samples.

Results

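The genes described here encode the enzymes of mitochondrial fatty acid oxidation, the tricarboxylic acid (TCA) cycle and the pyruvate dehydrogenase step that links glycolysis to the cycle. The list has 31 members, 15 of fatty acid oxidation, 12 of the TCA cycle and 4 of pyruvate dehydrogenase, out of 22836 gene symbols in the files. All 31 were found, and all 31 reached 1 RPKM (reads scaled by transcript length in kilobases and by library size) in at least 1 library. A gene was represented by its transcript with the highest mean RPKM, and 30 of the 31 had 1 transcript only. Ogdh had several.

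RNA was sequenced from 14 mouse samples, 1 library in each of 14 groups. Brown preadipocytes from the interscapular brown fat of newborn Pparg f/f pups, immortalized with SV40T, and 3T3-L1, an immortalized white preadipocyte line, were each sampled before induction (0h, confluent cells) and 1h, 2h, 4h, 2 days and 7 days after it. Brown adipose tissue was taken from adult mice and from embryos, with no age given. Induction was with insulin (0.02 µM), the thyroid hormone T3 (1 nM), the phosphodiesterase inhibitor IBMX (0.5 mM), the glucocorticoid dexamethasone (1 µM) and indomethacin (0.125 mM). The labels give C57BL/6J as the strain of all 14 samples, 3T3-L1 included, and repeat the text on the brown line and its induction for the tissues and for 3T3-L1. The brown line is floxed at Pparg, which encodes the nuclear receptor PPARγ, and the labels name no Cre recombinase. It is not stated whether the line is 1 clone, nor how many animals gave the tissues.

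Fatty acids enter mitochondria as carnitine esters. CPT1, on the outer membrane, makes the ester and is inhibited by malonyl-CoA, and CPT2, on the inner membrane, returns the acyl-CoA. Each round of beta-oxidation then takes an acyl-CoA dehydrogenase, a hydratase, a 3-hydroxyacyl-CoA dehydrogenase and a thiolase, and gives acetyl-CoA. The electrons of the first step go through the electron transfer flavoprotein (ETF) to the respiratory chain. Pyruvate dehydrogenase makes acetyl-CoA from pyruvate, the kinase PDK4 switches it off by phosphorylation, and the TCA cycle oxidizes acetyl-CoA from both sources. Brown adipose tissue is rich in mitochondria and burns fatty acids to make heat, whereas white adipocytes mainly store them.

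Promoter sequences are shown for the genes on which the results turn. They come from RefSeq (GRCm38.p6, not the submitters' build) and run from 250 bases before to 50 bases after the annotated start. Such windows were given for 28 of the 31 members, in 33 windows. Hadha and Hadhb, the α and β subunits of the mitochondrial trifunctional protein, are shown as 1 stretch because they share a promoter region. Their start sites lie 273 bases apart on opposite strands, and 228 bases belong to the windows of both. The Hadhb window (chr5:30155003-30155302, plus strand) has these shared bases in capitals.
Hadhb: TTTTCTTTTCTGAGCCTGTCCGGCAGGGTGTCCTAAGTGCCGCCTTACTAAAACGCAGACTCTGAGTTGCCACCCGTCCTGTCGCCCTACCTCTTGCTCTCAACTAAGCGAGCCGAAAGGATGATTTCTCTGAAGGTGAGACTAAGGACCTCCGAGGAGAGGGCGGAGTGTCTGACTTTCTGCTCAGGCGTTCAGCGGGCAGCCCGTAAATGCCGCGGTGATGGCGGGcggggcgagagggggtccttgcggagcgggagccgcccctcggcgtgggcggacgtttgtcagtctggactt
The next 3 windows belong to the gene whose level ran in opposite directions in the lines (Pdk4, chr6:5496229-5496528, minus strand), the oxidation gene with the largest fitted rise (Acadm, chr3:153944594-153944893, minus strand) and the member whose level fell (Cpt1a, chr19:3323051-3323350, plus strand). Capitals run from the start site on.
Pdk4: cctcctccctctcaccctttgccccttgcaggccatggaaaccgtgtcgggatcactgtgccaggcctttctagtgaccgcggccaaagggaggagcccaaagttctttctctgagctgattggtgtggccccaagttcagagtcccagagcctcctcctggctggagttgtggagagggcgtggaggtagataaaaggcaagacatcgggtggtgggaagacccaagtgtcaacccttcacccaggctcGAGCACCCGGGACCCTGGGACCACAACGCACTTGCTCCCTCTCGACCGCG
Acadm: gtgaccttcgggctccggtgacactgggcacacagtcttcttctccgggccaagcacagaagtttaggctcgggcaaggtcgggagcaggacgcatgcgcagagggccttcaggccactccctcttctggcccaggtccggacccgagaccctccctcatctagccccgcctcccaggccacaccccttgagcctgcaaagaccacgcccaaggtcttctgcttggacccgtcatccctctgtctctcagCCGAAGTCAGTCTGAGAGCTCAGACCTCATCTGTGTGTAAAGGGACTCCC
Cpt1a: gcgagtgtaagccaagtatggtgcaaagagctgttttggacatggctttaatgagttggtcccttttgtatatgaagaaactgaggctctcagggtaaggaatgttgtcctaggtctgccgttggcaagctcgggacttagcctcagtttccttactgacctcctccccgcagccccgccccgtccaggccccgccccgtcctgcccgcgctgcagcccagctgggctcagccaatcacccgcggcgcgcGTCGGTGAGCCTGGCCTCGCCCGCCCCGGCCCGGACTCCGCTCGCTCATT

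Matches to 4 motifs of factors known to act on mitochondrial genes were searched on both strands of the windows. The NRF1 motif GCGCANGCGC was found in 4 of the 33 member windows and in 4.60% of all 32851 windows. The ETS motif CCGGAAG was likewise in 4 of 33 and in 8.86% of all windows, and no member window held both. The motifs TNAAGGTCA, of estrogen-related receptors, and AGGNCANAGGNCA, a direct repeat bound by PPAR with RXR, were in 0 of the 33 member windows and in 1.28% and 0.381% of all windows. The members with an NRF1 match are spread over the pathways: Etfdh and Etfb of electron transfer, the shared E3 subunit Dld and the succinyl-CoA ligase gene Sucla2. Capitals mark the match, and each stretch is read on the strand of its gene.
Etfdh (chr3:79628876-79628905, minus strand): tgcttctaggGCGCATGCGCacacgcgaga
Etfb (chr7:43444051-43444080, plus strand): gtgttgcggcGCGCAGGCGCagagacagat
Dld (chr12:31351422-31351442, minus strand): cgtatatgttGCGCAGGCGCa
Sucla2 (chr14:73552759-73552788, plus strand): ctgcgtctctGCGCCTGCGCggtgcccagg
The ETS matches were in the promoters of Cpt2 and of 3 TCA cycle genes, Dlst and the isocitrate dehydrogenase subunits Idh3b and Idh3g.
Cpt2 (chr4:107923686-107923712, minus strand): ttagagaccgCTTCCGGcccaggtggg
Dlst (chr12:85110824-85110850, plus strand): gccggtctcaCTTCCGGttgctgccgg
Idh3b (chr2:130284440-130284466, minus strand): accgcgctcgCTTCCGGcgtcacttcc
Idh3g (chrX:73786985-73787011, minus strand): gctctaggcaCCGGAAGggggcgtaag

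The depth estimated from the deposited values was 5.35 M reads (M, mega) for the adult tissue library and 18.8 M for the embryonic one, while it was between 39.4 and 80.8 M for the 12 culture libraries. The deposited read counts of the tissues summed to 4.02 M and 17.5 M. Adipocyte markers (6 genes) summed to 4921 RPKM in the brown line at day 7, against 42.7 at 0h, and to 14719 RPKM in 3T3-L1 at day 7, against 320.3 at 0h. The name of the brown line was not borne out by its 6 brown adipocyte markers, which summed to 3495 RPKM in adult and 6525 in embryonic tissue, but to 66.9 in the brown line and 48.1 in 3T3-L1 at day 7. Ucp1, the uncoupling protein that defines brown adipocytes, stood at 1015 and 1194 RPKM in adult and embryonic tissue. At day 7 it stood at 1.07 RPKM in the brown line and 0 in 3T3-L1. A single gene made up most of each day 7 sum. Cox7a1 was at 54.9 RPKM in the brown line and 12.1 in 3T3-L1, and Cox8b at 2.63 and 32.5. The tissues held other cells as well. Skeletal muscle markers (8 genes) summed to 1276 RPKM in adult and 402.9 in embryonic tissue, erythroid markers (4 genes) to 123 and 1630, and endothelial markers (4 genes) to 125 and 239.6, while in the culture libraries these lists stayed at or under 14.6, 0.87 and 0.83 RPKM. The header style of the day 2 and day 7 culture files differs from that of the 0h to 4h files, for the brown line as for 3T3-L1, so time and a possible batch of late libraries cannot be told apart.

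The summed levels of oxidation and of TCA cycle genes were level or somewhat lower in the first 4 hours, and those of all 3 pathways were higher at day 2 and day 7. In the brown line, the summed level of the 15 fatty acid oxidation genes was 1089, 1054, 1046, 1098, 2465 and 3903 parts in 1000000 of the RPKM of all genes, from 0h to day 7. In 3T3-L1 it was 1761, 1586, 1539, 1294, 2254 and 4234. The lines stood apart at 0h and close together at day 7. The 12 TCA cycle genes summed to 2439, 2436, 2492, 2464, 3545 and 5620 in the brown line and to 2219, 2004, 2104, 2075, 3265 and 5608 in 3T3-L1. The 4 pyruvate dehydrogenase genes summed to 377.4, 405.2, 428.2, 385.2, 674.8 and 1673 in the brown line and to 485.9, 594.6, 630.3, 374.5, 668.3 and 922 in 3T3-L1, higher at 1h and 2h than at 0h in both lines. These sums include the inhibiting kinase Pdk4, at 4.09, 8.67 and 13.7 RPKM at 0h, 1h and 2h in the brown line and 32.2, 65.1 and 65.15 in 3T3-L1. The enzyme subunits had no like rise. Pdha1 stood at 64.0, 66.9 and 64.8 RPKM in the brown line and 65.97, 65.5 and 65.3 in 3T3-L1. Pdhb stood at 14.9, 16.2 and 16.8 and at 16.8, 16.3 and 17.2, and Dlat at 15.4, 15.6 and 15.7 and at 12.1, 11.1 and 12.4. Over the whole course the TCA sum reached 2.30 times its 0h value in the brown line and 2.53 times in 3T3-L1, and the oxidation sum 3.58 and 2.40 times. All 31 members together made up 1.12% of the summed RPKM in the brown line at day 7, against 0.390% at 0h, and 1.08% in 3T3-L1 at day 7, against 0.447% at 0h. In adult and embryonic tissue they made up 4.76% and 4.62%.

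**Figure D1:**
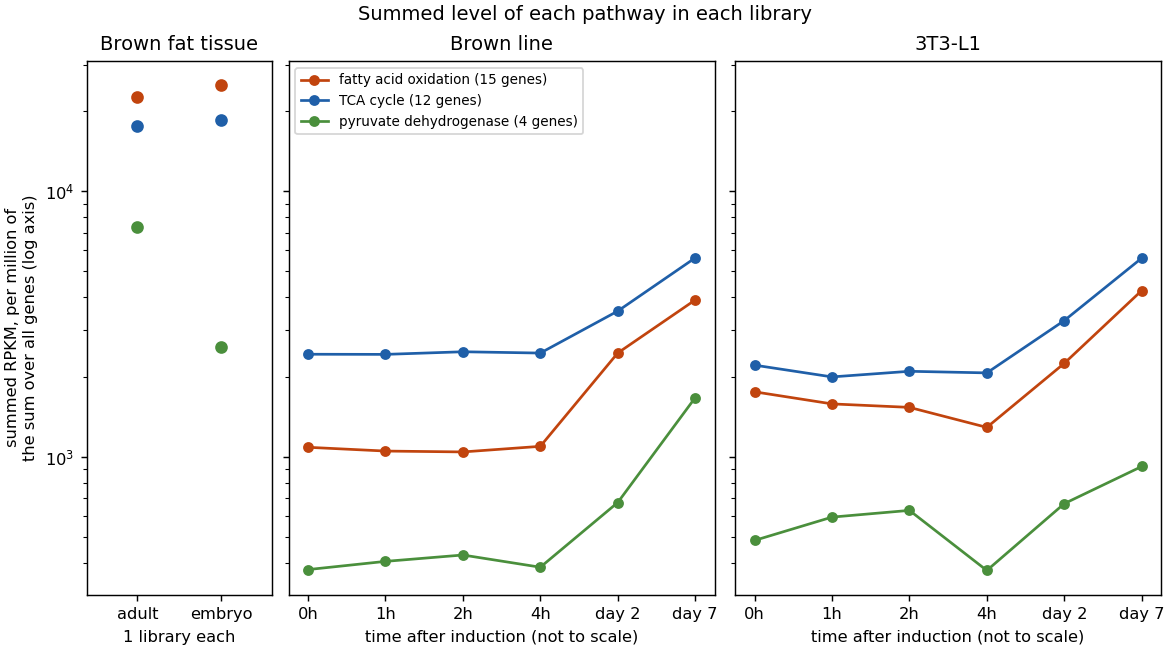
Summed level of the 15 fatty acid oxidation, 12 TCA cycle and 4 pyruvate dehydrogenase genes in each library (points, 1 library each), scaled to the summed RPKM of all genes, on a log axis, in adult and embryonic brown fat (left) and by time in the brown line (middle) and 3T3-L1 (right). In both tissues the oxidation sum (22624 and 25072) lies above the TCA cycle sum (17688 and 18494), and in every culture library it lies below.

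Whether the members answered the inducing hormones within hours was tested with limma on log2(RPKM + 1), with time and line as terms and the 2 lines as the replicates at each time (n = 2). A gene was called at a Benjamini-Hochberg adjusted p under 0.05 over all 12428 genes tested. The p-values rest on the spread between the changes of these 2 lines only. That spread is pooled over all times of the course, so it is not that of the time tested alone. No member was called at 1h, 2h or 4h, in either direction. Of all genes, 0.0402% were called at 1h, 1.42% at 2h (0.507% risen, 0.909% fallen) and 2.39% at 4h (0.933% risen, 1.46% fallen). At an unadjusted p under 0.05, the sole member in limma was Acadm at 4h. Its log2 difference was -0.53 ± 0.14 (SE, limma adjusted p = 0.0864), with 8.71 RPKM at 4h, against 12.1 at 0h, in the brown line and 8.06, against 13.0, in 3T3-L1. With the 0h to 4h libraries fitted alone, Acadm fell (limma adjusted p = 0.0181), as did Acads, the short-chain dehydrogenase, by 0.61 on the log2 scale (limma adjusted p = 0.0335). Within the first 4 hours the ratio of a gene's highest to its lowest RPKM + 1 had a median of 1.15 over the oxidation genes and 1.11 over the TCA cycle genes in the brown line, against 1.29 over all genes tested. In 3T3-L1 the medians were 1.31 and 1.24, against 1.41 over all genes, with Acads at 1.87, Acadl at 1.85 and Cpt1a at 1.81. Pdk4 was the member that moved most in these hours, by 3.14 times in the brown line and 4.07 times in 3T3-L1.

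Members of all 3 pathways had risen by day 2, and most members had by day 7. At day 2, 7 of the 15 oxidation genes, 2 of the 12 TCA cycle genes and 2 of the 4 pyruvate dehydrogenase genes rose and 0 members fell, while 6.18% of all genes rose and 11.5% fell. The median log2 difference was 0.60 over the oxidation genes, 0.31 over the TCA cycle genes and 0.68 over the pyruvate dehydrogenase genes, against -0.06 over all genes. At day 7, 13 oxidation genes, 11 TCA cycle genes and 3 pyruvate dehydrogenase genes rose and Cpt1a fell, while 14.9% of all genes rose and 25.8% fell, 40.6% in all. The 13 oxidation genes include Cpt1b, which passed the filter of 1 RPKM in 2 libraries only through late libraries, so its call lends the count no support. The medians were 1.45, 1.11 and 1.29, against -0.19 over all genes. In 29 of the 31 members the level at day 7 was above 0h in both lines, which held for 28.0% of all genes tested. Of the 28 calls at day 7, 21 held with each culture library left out in turn. Of the 11 at day 2, 3 did, those of Acadm, Acadvl and Idh3a. Without the brown 0h library or without the 3T3-L1 0h library, 7 of the 11 day 2 calls ended, leaving 3 oxidation genes, 1 TCA cycle gene and 0 pyruvate dehydrogenase genes.

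**Figure D2:**
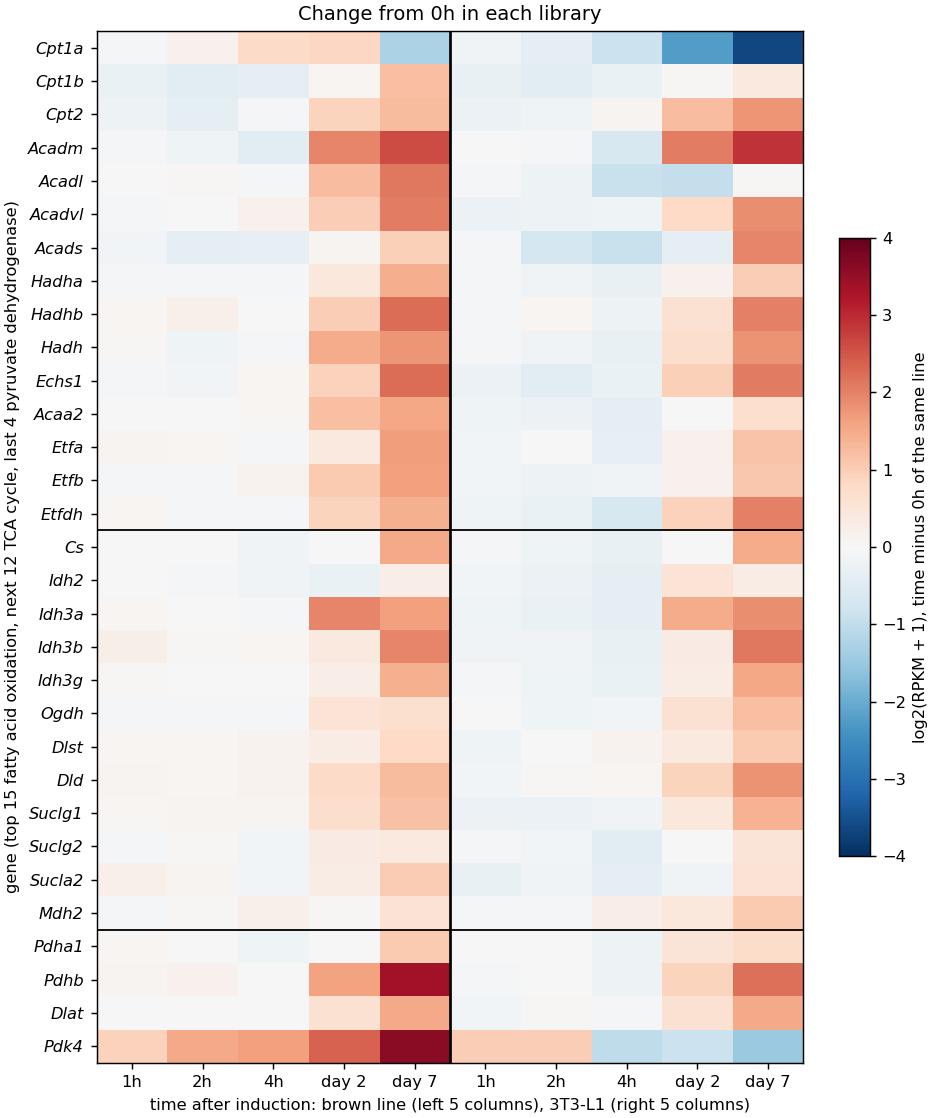
Log2(RPKM + 1) of each member at each time minus its 0h value in the same line (color), with genes down the page and times across, brown line on the left and 3T3-L1 on the right, 1 library per column. In the columns of 1h to 4h Pdk4 stands out most (ratio of highest to lowest 3.14 and 4.07), followed by Cpt1a in the brown line (1.73) and Acads, Acadl and Cpt1a in 3T3-L1 (1.87, 1.85 and 1.81), and the day 7 columns are red in 29 of the 31 genes in both lines.

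The 3 carnitine palmitoyltransferase genes among the members took unlike courses. Cpt1a, the form known from liver and most tissues, stood at 18.1, 17.7, 20.45, 31.3, 32.9 and 7.03 RPKM in the brown line from 0h to day 7. In 3T3-L1 it stood at 72.7, 65.1, 56.8, 39.7, 14.5 and 4.92 RPKM. The level in 3T3-L1 was lower at each later time, whereas in the brown line it was highest at day 2 before the low value of day 7. The fitted log2 difference at day 7 was -2.45 ± 0.74 (SE, limma adjusted p = 0.0320). This call ended without the 3T3-L1 0h library (limma adjusted p = 0.205), the 3T3-L1 day 7 library (0.154), the 3T3-L1 4h library (0.0525) or the brown 4h library (0.0524), and with no filter on low values (0.0683). Cpt1b, the form of muscle and brown fat, stayed between 0.27 and 3.58 RPKM in all culture libraries. It was at 3.58 RPKM in the brown line and 1.27 in 3T3-L1 at day 7, against 0.97 and 0.74 at 0h. Its fitted rise was 0.80 ± 0.24 (SE, limma adjusted p = 0.0338), a call that was kept in 3 of the 12 fits with 1 library left out. It passed the filter of 1 RPKM in 2 libraries only through late libraries. Cpt2, the inner membrane enzyme, stood at 15.2, 29.25 and 37.6 RPKM at 0h, day 2 and day 7 in the brown line and at 25.8, 61.9 and 89.8 in 3T3-L1. It rose by 1.06 ± 0.16 at day 2 (SE, limma adjusted p = 0.00484) and by 1.51 ± 0.16 at day 7 (limma adjusted p = 0.000478).

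The acyl-CoA dehydrogenases divide the fatty acids by chain length. Acadm, the medium-chain enzyme, stood at 12.1, 11.3, 10.5, 8.71, 49.1 and 78.9 RPKM in the brown line from 0h to day 7 and at 13.0, 13.1, 12.3, 8.06, 57.4 and 103 in 3T3-L1. The courses nearly coincided, and on the log2 scale most of the increase had taken place by day 2. Between day 2 and day 7 it rose by a further 0.75 ± 0.14 (SE, limma adjusted p = 0.0116). Acadm rose by 2.00 ± 0.14 at day 2 (SE, limma adjusted p = 0.000423) and by 2.75 ± 0.14 at day 7 (limma adjusted p = 5.62e-05), the largest fitted rise among the oxidation genes at both times. Acadvl, the very-long-chain enzyme, stood at 18.4, 37.5 and 79.2 RPKM at 0h, day 2 and day 7 in the brown line and at 18.35, 32.9 and 69.7 in 3T3-L1. It rose by 1.96 ± 0.12 at day 7 (limma adjusted p = 9.22e-05), about evenly over both intervals.

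Acads and Acadl had unlike values in the lines. Acads, the short-chain enzyme, stood at 16.85, 18.1 and 33.6 RPKM at 0h, day 2 and day 7 in the brown line and at 22.3, 17.0 and 89.0 in 3T3-L1. It had not moved beyond the spread at day 2 (log2 difference -0.14, limma adjusted p = 0.811) and rose by 1.45 ± 0.34 at day 7 (limma adjusted p = 0.0127, with the call lost without either 0h library). Acadl, the long-chain enzyme, stood at 25.7, 26.0, 26.5, 24.3, 62.35 and 114 RPKM in the brown line from 0h to day 7. In 3T3-L1 it stood at 50.9, 48.4, 43.7, 27.02, 25.8 and 53.0 RPKM. It was 4.43 times its 0h level at day 7 in the brown line and 1.04 times in 3T3-L1, where it first dropped and then returned. Acadl passed at no time (log2 difference at day 7 1.08 ± 0.58, SE, limma adjusted p = 0.170).

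All 5 genes of the later steps rose by day 7. Hadhb, the thiolase subunit of the trifunctional protein, stood at 2.66, 6.27 and 16.4 RPKM at 0h, day 2 and day 7 in the brown line and at 2.71, 4.69 and 13.9 in 3T3-L1. It rose by 2.13 ± 0.14 at day 7 (SE, limma adjusted p = 0.000117). Hadha, its partner subunit, stood at 25.3, 34.2 and 70.6 RPKM in the brown line and at 31.4, 35.4 and 63.8 in 3T3-L1, and rose by 1.22 ± 0.15 (limma adjusted p = 0.000815). The level of Hadha over that of Hadhb, whose promoters adjoin as shown above, was 9.5, 5.45 and 4.31 in the brown line and 11.6, 7.55 and 4.58 in 3T3-L1. Both subunits were thus higher at day 7 and their levels were closer to each other. Echs1, the short-chain hydratase, stood at 14.6, 28.5 and 72.65 RPKM in the brown line and at 24.9, 48.7 and 109 in 3T3-L1, and rose by 2.17 ± 0.14 (limma adjusted p = 0.000103). Hadh, the 3-hydroxyacyl-CoA dehydrogenase of shorter chains, rose by 1.09 ± 0.21 at day 2 already (limma adjusted p = 0.0139) and by 1.78 ± 0.21 at day 7. Acaa2, a thiolase, stood at 68.2 RPKM at day 7, against 22.5 at 0h, in the brown line and at 60.3 against 37.1 in 3T3-L1. Its rise of 1.12 ± 0.29 (limma adjusted p = 0.0182) did not hold without the brown 0h library (limma adjusted p = 0.137) or the brown day 7 library (0.0861).

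The 3 genes that pass electrons on from the dehydrogenases also rose by day 7. Etfa and Etfb, the α and β subunits of ETF, stood at 83.7 and 118 RPKM in the brown line at day 7, against 25.85 and 36.95 at 0h, and at 72.4 and 142 RPKM in 3T3-L1 at day 7, against 32.1 and 67.1 at 0h. They rose by 1.40 ± 0.15 and 1.36 ± 0.23 (SE, limma adjusted p = 0.000475 and 0.00300). Etfdh, the ETF dehydrogenase that hands the electrons to ubiquinone, stood at 17.3, 33.1 and 48.4 RPKM at 0h, day 2 and day 7 in the brown line and at 16.8, 32.65 and 70.96 in 3T3-L1. It rose by 0.91 ± 0.25 at day 2 (limma adjusted p = 0.0444, a call kept in 4 of the 12 fits with 1 library left out) and by 1.73 ± 0.25 at day 7 (limma adjusted p = 0.00174).

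Of the TCA cycle genes, Idh3a came early and most of the others late. Idh3a, the catalytic subunit of the NAD-dependent isocitrate dehydrogenase, stood at 39.4, 41.5, 38.9, 38.2, 153.9 and 124.9 RPKM in the brown line from 0h to day 7. In 3T3-L1 it stood at 26.6, 23.3, 22.1, 20.7, 75.4 and 98.5 RPKM. It was 3.91 times its 0h level at day 2 in the brown line and 2.84 times in 3T3-L1. The rise was 1.71 ± 0.18 (SE) at day 2 (limma adjusted p = 0.00140), and the difference of day 7 from day 2 was 0.04 ± 0.18 (limma adjusted p = 0.903). The regulatory subunits of the same enzyme ran later. Idh3b stood at 40.5, 53.9 and 158 RPKM at 0h, day 2 and day 7 in the brown line and at 47.5, 59.5 and 207 in 3T3-L1, and Idh3g at 33.1, 40.4 and 90.99 and at 31.2, 38.5 and 92.7. Neither passed at day 2 (limma adjusted p = 0.175 and 0.187), and at day 7 against day 2 they rose by 1.66 ± 0.17 and 1.20 ± 0.14 (limma adjusted p = 0.00206 and 0.00285). The level of Idh3a over that of Idh3b was therefore highest at day 2, at 2.86 in the brown line and 1.27 in 3T3-L1, against 0.972 and 0.560 at 0h, and lower again at day 7, at 0.789 and 0.476.

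Cs, citrate synthase, which takes acetyl-CoA into the cycle, stood at 101, 98.97, 98.8, 90.9, 102 and 289 RPKM in the brown line from 0h to day 7. In 3T3-L1 it stood at 77.6, 73.4, 69.3, 62.4, 75.9 and 217 RPKM. At day 2 its level was 1.01 and 0.978 times that of 0h in the brown line and 3T3-L1, and at day 7 it was 2.87 and 2.80 times. It rose by 1.49 ± 0.12 at day 7 (SE, limma adjusted p = 0.000217) and did not pass at day 2 (limma adjusted p = 0.973). Dld, the dihydrolipoamide dehydrogenase that the pyruvate and 2-oxoglutarate complexes share, was the second cycle gene called at day 2 (0.83 ± 0.18, limma adjusted p = 0.0209), and that call ended without either 0h or either day 2 library. It rose by 1.52 ± 0.18 at day 7. Ogdh and Dlst, the other subunits of the 2-oxoglutarate complex, rose by 0.93 ± 0.17 and 0.93 ± 0.15 at day 7. Of the succinyl-CoA ligase subunits, Suclg1 rose by 1.28 ± 0.17, Sucla2 by 0.81 ± 0.15 and Suclg2 by 0.46 ± 0.15, the last call kept in 3 of the 12 fits with 1 library left out (limma adjusted p up to 0.214). Mdh2, the mitochondrial malate dehydrogenase, had the highest level of all members at 0h, 160.4 RPKM in the brown line and 108 in 3T3-L1, and rose by 0.81 ± 0.18 (limma adjusted p = 0.0100, or 0.0810 without the 3T3-L1 0h library). Idh2, the NADP-dependent isocitrate dehydrogenase, was the cycle gene that did not pass at day 7. It stood at 81.1, 66.8 and 97.05 RPKM at 0h, day 2 and day 7 in the brown line and at 69.6, 102 and 85.4 in 3T3-L1 (log2 difference 0.27 ± 0.25, limma adjusted p = 0.412).

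The subunits of pyruvate dehydrogenase rose and its kinase gene split the lines. Pdhb, the β subunit of the E1 component, stood at 14.9, 16.2, 16.8, 15.04, 47.7 and 161.5 RPKM in the brown line from 0h to day 7 and at 16.8, 16.3, 17.2, 14.6, 32.2 and 81.6 in 3T3-L1. It rose by 1.26 ± 0.27 at day 2 (SE, limma adjusted p = 0.0204, a call that ended without either 0h library or the brown day 2 library) and by 2.78 ± 0.27 at day 7 (limma adjusted p = 0.000390). Pdha1, the α subunit of the same component, stood at 64.0, 63.2 and 134 RPKM at 0h, day 2 and day 7 in the brown line and at 65.97, 95.7 and 111 in 3T3-L1. It rose by 0.90 ± 0.20 at day 7 (limma adjusted p = 0.00961), a call that ended without the brown 0h library (0.0604) or the 3T3-L1 0h library (0.0600). The level of Pdha1 over that of Pdhb was 0.833 in the brown line and 1.36 in 3T3-L1 at day 7, against 4.30 and 3.92 at 0h. Dlat, the E2 component, rose by 0.61 ± 0.11 at day 2 and 1.52 ± 0.11 at day 7 (limma adjusted p = 0.0102 and 0.000140).

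Pdk4, whose product inhibits the complex and which glucocorticoids and fatty acids are known to induce, stood at 4.09, 8.67, 13.7, 14.99, 25.04 and 61.02 RPKM in the brown line from 0h to day 7. In 3T3-L1 it stood at 32.2, 65.1, 65.15, 15.3, 17.2 and 10.8 RPKM. The brown line had a higher value at each later time, while 3T3-L1 was highest at 1h and 2h and at day 7 below its 0h level. The day 7 level was 14.9 times that of 0h in the brown line and 0.334 times in 3T3-L1. The mean change of both lines did not pass at any time (log2 difference at day 7 1.05 ± 1.20, SE, limma adjusted p = 0.510), and the difference between the lines was not tested, with 1 library each. The SE is pooled over the course and was also 1.20 at 1h, when the level was above 0h in both lines (log2 difference 0.96). Not passing at 1h therefore does not show that the lines disagreed then.

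**Figure D3:**
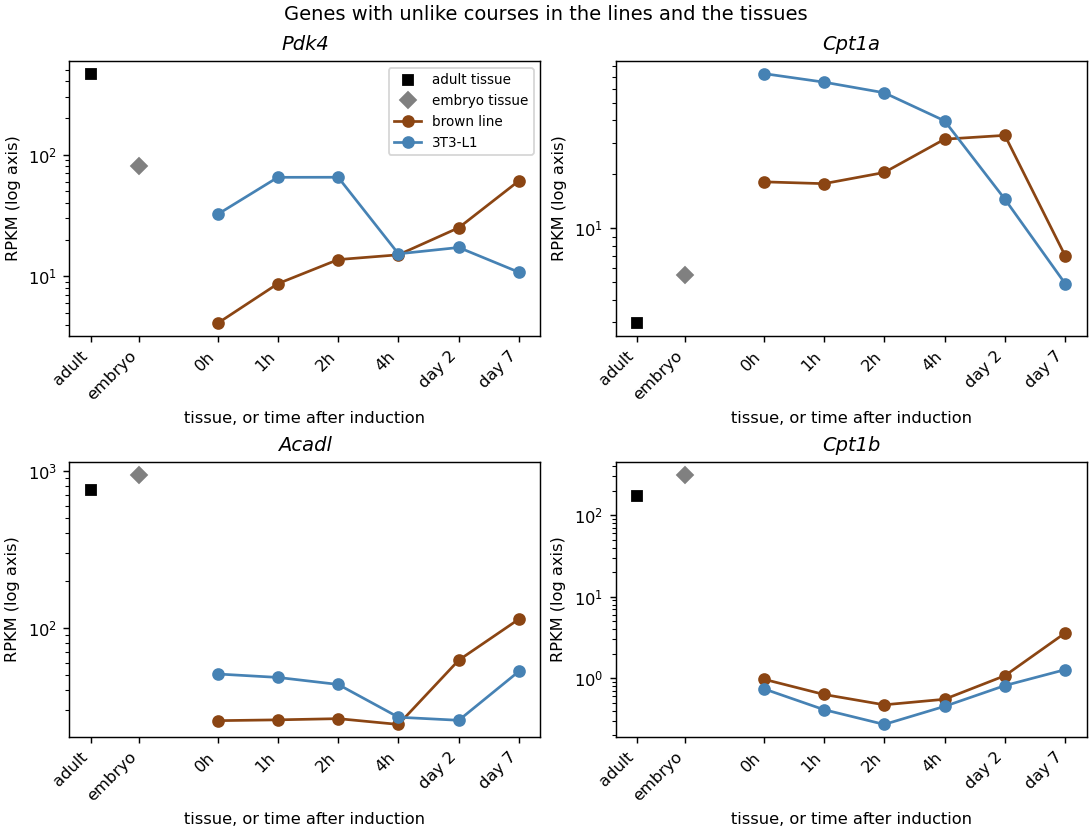
RPKM (log axis) of Pdk4, Cpt1a, Acadl and Cpt1b in each of the 14 libraries, in adult and embryonic brown fat (square and diamond) and by time in the brown line and in 3T3-L1 (lines), 1 library per point. Pdk4 ends at 61.02 RPKM in the brown line and 10.8 in 3T3-L1, and Cpt1b is far higher in the tissues (172.5 and 314) than in any culture library (0.27 to 3.58).

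The courses of the pathways were then set side by side. From 0h to day 2 the median step in the brown line was 0.92 on the log2 scale over the oxidation genes and 0.32 over the TCA cycle genes, and from day 2 to day 7 it was 0.85 and 0.52. In 3T3-L1 the medians were 0.17 and 0.40 in the first interval and 0.98 and 0.71 in the second. The first interval held the larger step, rise or fall, in 7 of 15 oxidation and 5 of 12 TCA cycle genes in the brown line, where it did so in 54.7% of all genes tested. In 3T3-L1 it was 3 of 15 and 3 of 12, against 45.5% of all genes, and the 3 oxidation genes include Cpt1a, whose first step was a fall (-2.25). By these medians the TCA cycle genes moved more after day 2 in both lines, the oxidation genes moved more after day 2 in 3T3-L1, and the oxidation genes moved about equally in both intervals in the brown line. The interval from day 2 to day 7 is the longer one, so a larger step in it is not a faster change. Between day 2 and day 7, 7 oxidation genes, 7 TCA cycle genes and 2 pyruvate dehydrogenase genes rose and 0 fell, while 7.60% of all genes rose and 11.3% fell, 18.9% in all. The TCA cycle count was 3 without the 3T3-L1 day 2 library and 4 without the 3T3-L1 day 7 library. No test compared the pathways with each other, and at day 2 the TCA cycle count was 7, not 2, after quantile scaling.

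**Figure D4:**
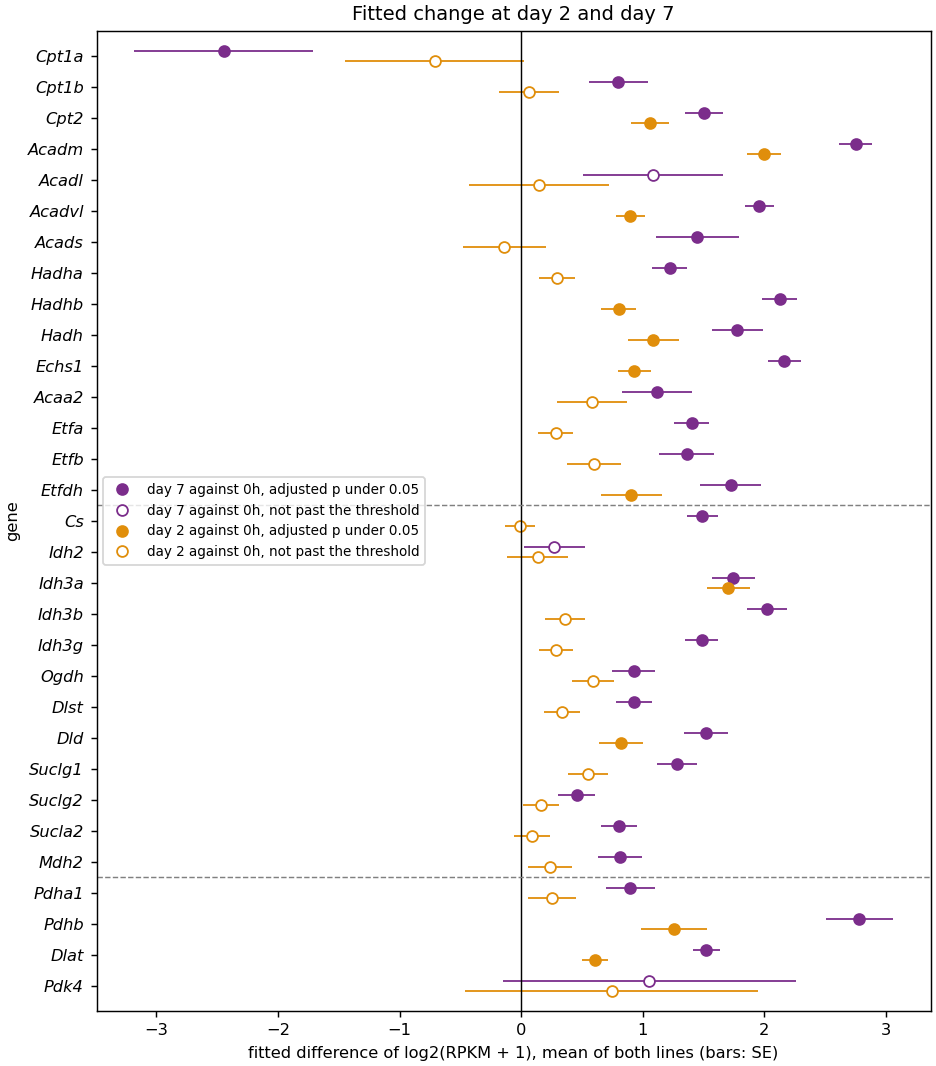
Fitted log2(RPKM + 1) difference of day 7 and day 2 from 0h for each member (points, mean of both lines; bars, SE), filled where the limma adjusted p was under 0.05, with dashed lines between the pathways. Cpt1a lies below 0 at day 7 (-2.45), Idh3a has nearly equal values at day 2 and day 7 (1.71 and 1.75), and Cs lies at 0 at day 2 and at 1.49 at day 7.

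How far the lines differed at matched times was described by single-library ratios, called at a difference of 2-fold or more where at least 1 of the 2 libraries reached 2 RPKM. At 0h, 1h and 2h, 0 members were higher in the brown line, against 10.5%, 11.9% and 13.5% of all genes. Cpt1a and Pdk4 were lower at these 3 times, while 9.54%, 9.63% and 8.98% of all genes were. The brown line over 3T3-L1 was 0.250 for Cpt1a and 0.127 for Pdk4 at 0h. At 4h, 0 members were 2-fold apart (14.5% of all genes higher, 7.58% lower). At day 2, Cpt1a (2.27-fold), Acadl (2.41-fold) and Idh3a (2.04-fold) were higher in the brown line, against 14.4% of all genes, and Cpt2 was lower (0.472-fold), against 9.60%. At day 7, Cpt1b (2.82-fold), Acadl (2.15-fold) and Pdk4 (5.67-fold) were higher, against 18.0% of all genes, and Cpt2 (0.419-fold), Acads (0.377-fold) and Suclg1 (0.461-fold) were lower, against 10.3%. These shares lie near or under those of all genes. The median log2 ratio at day 7 was 0.14 over the oxidation genes and 0.04 over the TCA cycle genes, and both turned negative (-0.05 and -0.15) after scaling by the median of ratios.

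More members were 2-fold apart between tissue and cells than between the lines at any time. The tissue and culture files differ in layout and in library depth. Tissue against culture and a possible difference in processing therefore cannot be told apart. Adult brown fat was 2-fold or more above the brown line at day 7 in 25 of the 31 members, against 11.2% of all genes, and below it in 1, Cpt1a, against 46.8%. The oxidation genes were higher in 14 of 15 cases, the TCA cycle genes in 8 of 12 and the pyruvate dehydrogenase genes in 3 of 4, with median log2 ratios of 2.17, 1.58 and 2.145, against -0.78 over all genes. Against 3T3-L1 at day 7, adult tissue was 2-fold or more higher in 23 members, against 12.9% of all genes, and lower in 0, against 40.2%. Summed over the pathway, adult tissue was 5.80 times the brown line at day 7 for oxidation and 3.15 times for the TCA cycle, and 5.34 and 3.15 times 3T3-L1. Scaling by the median of ratios moved these log2 ratios up by 0.90 for the brown line and 0.71 for 3T3-L1 and made 29 and 27 members higher. Fat cells are one of several cell types in the tissue, and fewer cells of a type and less RNA per cell cannot be told apart in such bulk samples. The skeletal muscle marker sum of 1276 RPKM in adult tissue, against 2.13 in the brown line and 2.19 in 3T3-L1 at day 7, stands beside these ratios, and its part in them was not tested. Fibroblast and preadipocyte markers (6 genes) summed to 604.7 RPKM in the brown line and 422.9 in 3T3-L1 at day 7, against 47.4 in adult tissue. Thy1 in the brown line (1.22 against 3.56) and Acta2 in 3T3-L1 (7.44 against 9.45) went the other way. The part of such cells in the ratios was not tested either.

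The size of the gap differed from gene to gene. Cpt1b was at 172.5 RPKM in adult tissue, against 3.58 in the brown line and 1.27 in 3T3-L1 at day 7, or 48.2-fold (95% interval 44.2 to 52.6, counting error only) and 136-fold (117 to 159). Cpt1a was at 2.96 RPKM in adult tissue, against 7.03 and 4.92 RPKM, so that the level of Cpt1b over that of Cpt1a was 58.4 in adult tissue, 57.4 in embryonic tissue, 0.509 in the brown line and 0.258 in 3T3-L1 at day 7. The muscle-type gene was thus the predominant Cpt1 transcript in both tissues and the liver-type gene in both cultures. Cpt1b was at 172.5 RPKM in adult and 314 in embryonic tissue. Sucla2, the ATP-forming β subunit of succinyl-CoA ligase, was at 402 RPKM in adult tissue, against 40.8 in the brown line and 35.6 in 3T3-L1 at day 7 (9.85-fold and 11.3-fold). Suclg2, the GTP-forming alternative, was at 16.2, 12.96 and 23.6 RPKM in the same libraries. The level of Sucla2 over that of Suclg2 was 24.7 in adult and 27.1 in embryonic tissue, and at most 3.15 in the culture libraries.

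Among the other oxidation genes the adult tissue was 9.51-fold above the brown line for Acaa2, 7.11-fold for Hadhb, 6.59-fold for Acadl and 5.93-fold for Acadm. Acads was at 101 RPKM in adult tissue and 89.0 in 3T3-L1 at day 7, and Cpt2 at 149.6 and 89.8, so that these 2 genes were within 2-fold. In the TCA cycle, Ogdh was 6.95-fold and Suclg1 6.22-fold above the brown line, while Cs was at 561 against 289 RPKM, Mdh2 at 312 against 240.2 and Idh2 at 98.4 against 97.05. Idh2 was thus 1.01-fold the level of the brown line at day 7. Pdk4 was 7.61-fold above the brown line and 43.2-fold above 3T3-L1, at 465 RPKM in adult tissue.

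**Figure D5:**
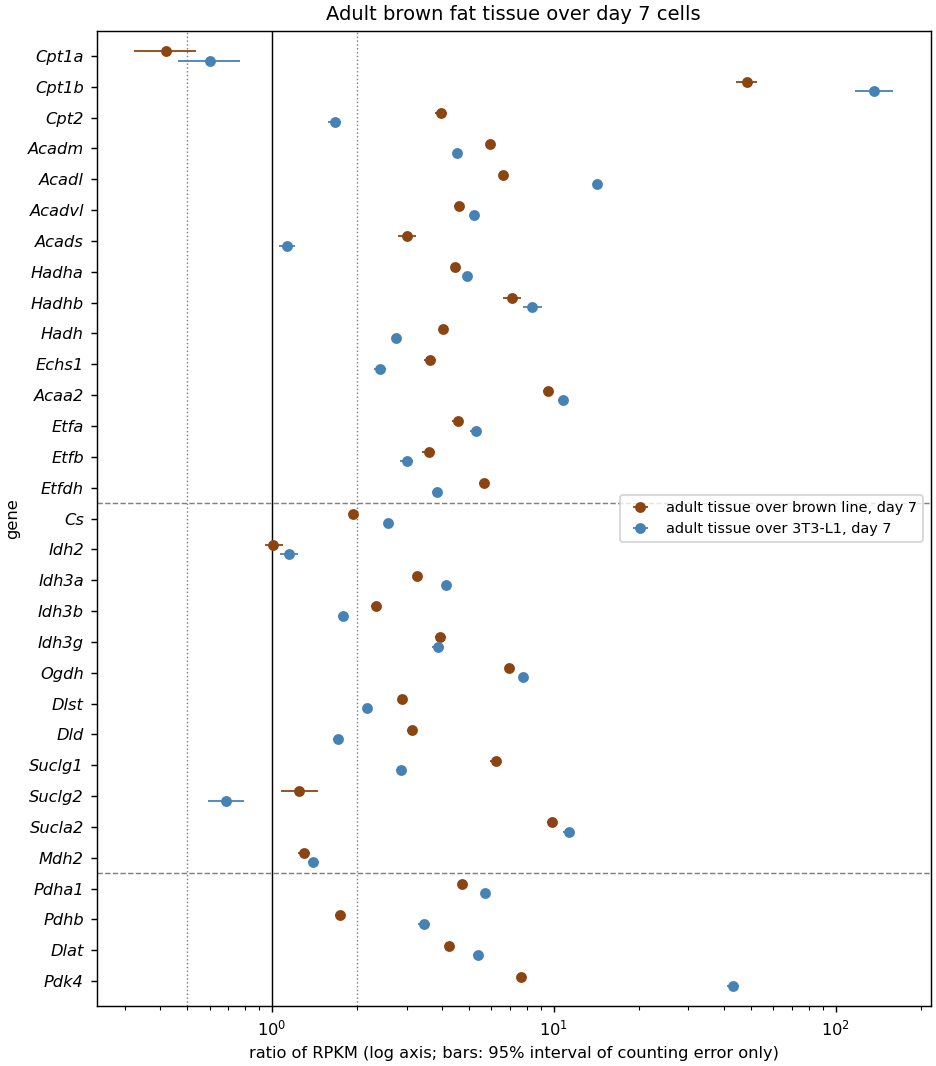
Ratio of RPKM in adult brown fat over the day 7 cells of the brown line and of 3T3-L1 for each member (log axis, 1 library each; bars, 95% interval of counting error only; dotted lines, 2-fold either way). Cpt1b lies farthest to the right (48.2 and 136), Idh2 lies at 1 for the brown line (1.01), and Cpt1a lies to the left of 1 for both (0.420 and 0.601).

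Adult and embryonic brown fat were closer to each other. Pdk4 was at 465 RPKM in adult and 80.4 in embryonic tissue, or 5.78-fold higher (5.58 to 5.98), the sole member 2-fold higher, against 6.11% of all genes. Lower by 2-fold or more in adult tissue were 5 members, against 34.0% of all genes. Mdh2 was at 312 against 1029 RPKM (0.303-fold), Etfb at 425.5 against 1332 (0.319-fold), Acads at 101 against 236, Acaa2 was 0.450-fold and Idh2 at 98.4 against 214. The medians of -0.69 over the oxidation and -0.50 over the TCA cycle genes lay near the -0.56 of all genes, and after scaling by the median of ratios, which moved this comparison by 0.55, they were -0.14 and 0.04, with 3 members higher and 2 lower. The median of 0.78 over the 4 pyruvate dehydrogenase genes, before that scaling, lay apart from that of all genes. Besides Pdk4, Pdha1 was 1.84-fold and Dlat 1.61-fold the embryonic level, and Pdhb 0.928-fold. The Pdk4 difference lay in the same direction as the sum of the skeletal muscle markers (1276 RPKM in adult and 402.9 in embryonic tissue). Of these markers, Mylpf (84.7 against 102.1) and Myh3 (0.187 against 10.05) went the other way. The part of muscle in the Pdk4 difference was not tested. The level of Hadha over that of Hadhb was 2.70 in adult and 6.48 in embryonic tissue, the lowest ratio of the 14 libraries being that of adult tissue.

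Further genes of the same pathways were counted in the same fit, in which 6.18% of all genes rose and 11.5% fell at day 2 and 14.9% rose and 25.8% fell at day 7. Of 14 other genes of oxidation, 2 rose at day 2, and 10 rose and 1 fell at day 7. The fall was that of Cpt1c, a carnitine palmitoyltransferase gene outside the members. It stood at 3.62 and 2 RPKM in the brown line and 3T3-L1 at day 7, against 10.9 and 13.5 at 0h (limma adjusted p = 0.00107). Acsl1, which activates long-chain fatty acids, stood at 7.56, 134.6 and 67.1 RPKM at 0h, day 2 and day 7 in the brown line and at 4.58, 209 and 995 in 3T3-L1 (day 7 log2 difference 5.24 ± 1.01, SE, limma adjusted p = 0.00564). Crat, which makes short-chain carnitine esters, rose by 2.44 ± 0.38 and Acad11, another acyl-CoA dehydrogenase, by 2.18 ± 0.31. Acacb, whose product makes the malonyl-CoA that inhibits CPT1, stood at 27.4 and 6.31 RPKM in the brown line and 3T3-L1 at day 7, against 0.44 and 2.02 at 0h (2.79 ± 0.67, limma adjusted p = 0.0133), and at 164.7 in adult tissue. Of 16 other TCA cycle and pyruvate genes, 6 rose and 1 fell at day 2, and 13 rose and 1 fell at day 7. Pcx, pyruvate carboxylase, which replenishes oxaloacetate, rose most, to 297 RPKM in the brown line and 744 in 3T3-L1 at day 7, against 9.63 and 34.9 at 0h (4.59 ± 0.16, limma adjusted p = 1.60e-05). It stood at 134 RPKM in adult tissue. The kinase genes Pdk1 and Pdk2 rose by 2.80 ± 0.39 and 2.87 ± 0.31, both higher at day 7 than at 0h in both lines, in contrast to Pdk4.

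Cytosolic or alternative forms of the same enzymes did not all follow. Of 6 tested (7 were listed), 1 rose and 3 fell at day 2 (6.18% and 11.5% of all genes), and 4 rose and 1 fell at day 7 (14.9% and 25.8%). Aco1, Mdh1 and Idh1 rose by 2.13 ± 0.20, 2.12 ± 0.30 and 1.42 ± 0.27 at day 7 (SE), and Me2, a mitochondrial malic enzyme, fell to 8.83 RPKM in the brown line and 7.22 in 3T3-L1, against 23.4 and 15.97 at 0h (limma adjusted p = 0.00371). Of 8 known regulators of these genes that were tested (10 were listed), 3 rose at day 2 and 4 at day 7, with 0 falls, while 6.18% and 14.9% of all genes rose. Ppargc1b, counted among them, was under 1 RPKM in all 0h to 4h libraries and passed the filter only through the later ones. Pparg rose by 2.12 ± 0.17 at day 2 and 3.84 ± 0.17 at day 7, Ppargc1b, a coactivator of mitochondrial genes, by 2.55 ± 0.28 and 3.86 ± 0.28, and Esrra, an estrogen-related receptor, by 0.77 ± 0.22 and 1.37 ± 0.22. Ppargc1a, the coactivator best known from brown fat, stood at 4.77 and 2.55 RPKM in the brown line and 3T3-L1 at day 7, against 0.23 and 1.98 at 0h, and at 15.2 in adult tissue, and did not pass (limma adjusted p = 0.0923).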

How the data were processed

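Per the file headers, the culture files hold RPKM values made by the authors, deposited with 2 decimals, and each tissue file gives, for 29082 RefSeq transcripts, a read count next to an RPKM, both deposited by the authors. Per the submitters' processing notes, CASAVA 1.8.2 and the build mm9 were used, with no role given. The aligner and the counting program, with its strand setting, were not given in the sources used here. Reads of overlapping genes or near-identical copies therefore cannot be told apart. Per the labels' protocols, RNA was taken up in Trizol, mRNA was purified on Dynabeads, and libraries were standard Illumina ones. According to the labels, the brown libraries of days 2 and 7 duplicate samples found in a different series. Titles gave the groups, and 0 columns of per-sample values were left out.

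Lengths from the tissue files turned low culture RPKM values into reads (100% were whole to within 0.2), and hence the depth. For the tissues the depth was estimated from read counts, RPKM and annotated transcript lengths. As RPKM cannot enter a count model, changes were tested by limma (3.58.1, with a trended prior, in R 4.3.3) on log2(RPKM + 1) over genes with 1 RPKM or more in at least 2 of the 12 culture libraries. Fold changes of low genes are understated on this scale. Ratios of single libraries have exact 95% intervals from the reads of both (conditional binomial), which cover counting error only. The 31 members and the other lists were chosen with earlier results of these data known, and all 31 members are named. From each other list, the 4 genes with the largest fitted change at day 7 are named, except 1 that is not reported here. Alternatives were other pseudocounts, filters, scalings and models, summed transcripts, a 1.5-fold threshold and leaving out each library.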

Additional observations from a re-analysis of the deposited data

Results flagged for a closer look

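At 1 or more times Cpt1a, Acadl and Pdk4 moved one way in the brown line and the other way in 3T3-L1, by 1.5-fold or more in each line, with 1 library per line and time. Smaller opposite moves of other members are not listed here. These differences between the lines were not tested. Cpt1a was at 1.73 times its 0h level in the brown line and 0.546 times in 3T3-L1 at 4h, and at 1.81 and 0.2 times at day 2. Acadl was at 2.43 times in the brown line and 0.507 times in 3T3-L1 at day 2. Pdk4 was at 3.67 and 0.474 times at 4h, at 6.12 and 0.534 times at day 2, and at 14.9 and 0.334 times at day 7. For all 3 genes the line with the lower level at 0h was the one that went up. As each ratio is divided by the level in that single 0h library, a low or high 0h value by itself favors this pattern.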

How the results depend on the processing

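No paired analysis was possible because each group held 1 library and the labels give no replicate numbers, other than the pairing by cell line, which is part of the model. No direction of a called member reversed under any alternative run, and of 55 member calls all 55 were kept with a pseudocount of 0.1, after scaling by the median of ratios or by quantiles, and with summed transcripts, 52 with no filter, 28 with no cell line term and 20 with the 0h, day 2 and day 7 libraries alone. With no cell line term the risen counts of oxidation, TCA cycle and pyruvate dehydrogenase genes were 2, 0 and 0 at day 2, and 4, 2 and 1 at day 7 against day 2, with 7 TCA cycle genes at day 7. With the 0h, day 2 and day 7 libraries alone they were 1, 0 and 0, then 0, 0 and 0, again with 7 TCA cycle genes at day 7. These fits have fewer libraries or a residual that holds the line difference. Quantile scaling gave 7 TCA cycle genes at day 2, the cause of which was not tested. The fall of Cpt1a at day 7 became 0 calls with no filter, no cell line term or the late libraries alone, and the 0h to 4h libraries alone gave 2 falls at 4h. With 1 library left out, the oxidation, TCA cycle and pyruvate dehydrogenase counts ranged over 3 to 7, 1 to 4 and 0 to 2 at day 2, 10 to 13, 9 to 11 and 2 to 3 at day 7, and 6 to 10, 3 to 9 and 2 to 3 at day 7 against day 2, and falls over 0 to 1 at 4h and at day 7. At 1.5-fold, members higher and lower in the brown line than in 3T3-L1 numbered 1 and 9 at 0h, 2 and 7 at 1h, 3 and 6 at 2h, 3 and 2 at 4h, 4 and 5 at day 2 and 4 and 6 at day 7, while 20.2% to 30.4% of all genes were higher and 13.9% to 19.7% lower. Adult over embryonic tissue then gave 3 higher and 13 lower (9.68% and 53.1% of all genes), and adult tissue over 3T3-L1 at day 7 gave 1 lower (55.5%). Median of ratios scaling gave 1 member lower in the brown line at 4h and 5 at day 7, 3 higher and 2 lower in adult than in embryonic tissue, and 0 lower in adult tissue than in the brown line. It moved the median of all genes by up to 0.19 between times, and quantile scaling by up to 0.15.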
